A study of Mus musculus with 17 samples.

Results

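The genes described here encode the proteins of the cytosolic ribosome. They were chosen by their symbols, as probe sets that the platform annotation gives exactly 1 symbol, with a symbol of the Rpl or Rps kind or Rpsa, and the kinases of Rps6 were left out. This gave 48 genes of the 18193 named on the array, 26 of the large and 22 of the small ribosomal subunit. Where a gene had several such probe sets, that with the highest mean level across the 17 arrays was used. Of the 48 genes, 46 passed the filter on dim probe sets and were tested among 12696 genes. The other 2, Rpl39l and Rpl3l, paralogues of Rpl39 and Rpl3, lay between 1.77 and 2.99 on the log2 scale in every array and were not tested.

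Whole blood was taken from female C57BL/6JJcl mice, an inbred strain, at 8 weeks of age, 1 day (24 h) after X-ray exposure of the whole body. The control group held 5 mice given 0 Gy, and 4 mice each received 0.5, 1.0 or 3.0 Gy. The labels name no modified allele and no agent other than X-rays, and each array held the RNA of 1 mouse. Total RNA was read on an Affymetrix array, and values are log2 RMA levels, that is background-corrected, normalised and summarised over the probes of a set. Group values are mean ± SD (n = 5 for control, n = 4 for each dose).

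The cytosolic ribosome joins a small subunit, which reads the messenger RNA, to a large subunit, which forms the peptide bond. Each subunit is built on ribosomal RNA from proteins that are made in matched amounts, and most of their messenger RNAs start with a run of pyrimidines, the 5′ terminal oligopyrimidine (TOP) tract, through which growth signals control their translation. In blood these messages are abundant in lymphocytes and in reticulocytes, young red cells that lose their ribosomes as they mature. Free ribosomal proteins such as Rpl11 can bind Mdm2, the inhibitor of p53, when ribosome assembly fails. Inherited loss of 1 copy of several of these genes causes Diamond-Blackfan anaemia, a failure of red cell production.

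RefSeq promoter records on build GRCm38.p6 were matched by symbol for 42 of the 48 genes. Rpl7, Rpl8, Rps4l, Rps14, Rps20 and Rps29 were not among them. The sequences below show the 10 bases before and the 20 bases from the annotated start of transcription, 5′ to 3′ on the coding strand, with the longest unbroken run of C and T near the start in capitals. They are shown because this family is known for the TOP tract, a run of pyrimidines at the start of the message. Genes with long and short runs were also among those that fell furthest. The marked stretch is not itself shown to be a TOP tract, and in Rps27l and Rpl41 it lies wholly before the annotated start.
Rps18: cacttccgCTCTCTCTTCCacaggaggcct
Rpl22: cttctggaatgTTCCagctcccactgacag
Rpl22l1: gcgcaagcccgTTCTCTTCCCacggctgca
Rpl13a: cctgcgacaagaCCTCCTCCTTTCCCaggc
Rpl27a: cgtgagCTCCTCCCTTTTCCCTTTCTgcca
Rplp2: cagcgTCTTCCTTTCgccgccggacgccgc
Rps27l: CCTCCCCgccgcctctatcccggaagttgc
Rpl41: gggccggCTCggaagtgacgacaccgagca
The Rps18 window lies at chr17:33955646-33955675 on the minus strand and the Rpl22 window at chr4:152324426-152324455 on the plus strand. Those of Rpl22l1 and Rpl13a lie at chr3:28805498-28805527 (plus) and chr7:45128726-45128755 (minus). Those of Rpl27a and Rplp2 lie at chr7:109519185-109519214 and chr7:141447641-141447670, both on the plus strand. Those of Rps27l and Rpl41 lie at chr9:66946076-66946105 (plus) and chr10:128549149-128549178 (minus). Each window spans the end of the promoter and the first bases of the 5′ UTR, as the record places the start. A second record of Rpl22 and of Rps27l is not shown, and it held a shorter run.

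A run of at least 8 pyrimidines that reached the start (a base from 5 before to 4 after it) was found in 16 of the 42 genes (38.1%), against 9.67% of the 27025 genes with such a record. The longest run covered 20 bases in Rpl27a, 14 in Rpl13a, 11 in Rps18 and 4 in Rpl22. Over the whole records of 300 bases and both strands, the motif CCGGAAG, bound by ETS family factors, was present in 47.6% of the ribosomal protein genes and in 9.93% of all genes. The motif AAGATGG, bound by YY1, was present in 19% and 7.28%, and the TATA box TATAAA in 14.3% and 15.7%. The first and second motifs can share the letters AAG. After 3.0 Gy the median log2 change was -1.12 for the 16 tested genes with a run of at least 8 and -1.28 for the 24 with a shorter one. These are descriptions of letters near annotated starts, and a match does not show that a factor binds.

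All doses were followed by lower ribosomal protein messages. The median of the 46 genes in each array, as the difference from the control mean, was 0.14, -0.44, -0.02, 0.33 and -0.03 in control replicates 1 to 5. It was -0.84, -0.36, -0.75 and -0.69 at 0.5 Gy, -0.57, -0.62, -0.97 and -0.67 at 1.0 Gy, and -1.23, -1.17, -1.32 and -1.32 at 3.0 Gy. The 3.0 Gy arrays all lay below every other array, the 1.0 Gy arrays all lay below the controls, and 1 of the 0.5 Gy arrays, replicate 2, lay above the lowest control, replicate 2. In control replicate 2, 44 of the 46 genes lay below the control mean, against 1 in control replicate 1, so the genes moved up and down together among unirradiated mice too. The median SD of the genes within the controls was 0.29, against 0.21 over all genes tested.

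**Figure D1:**
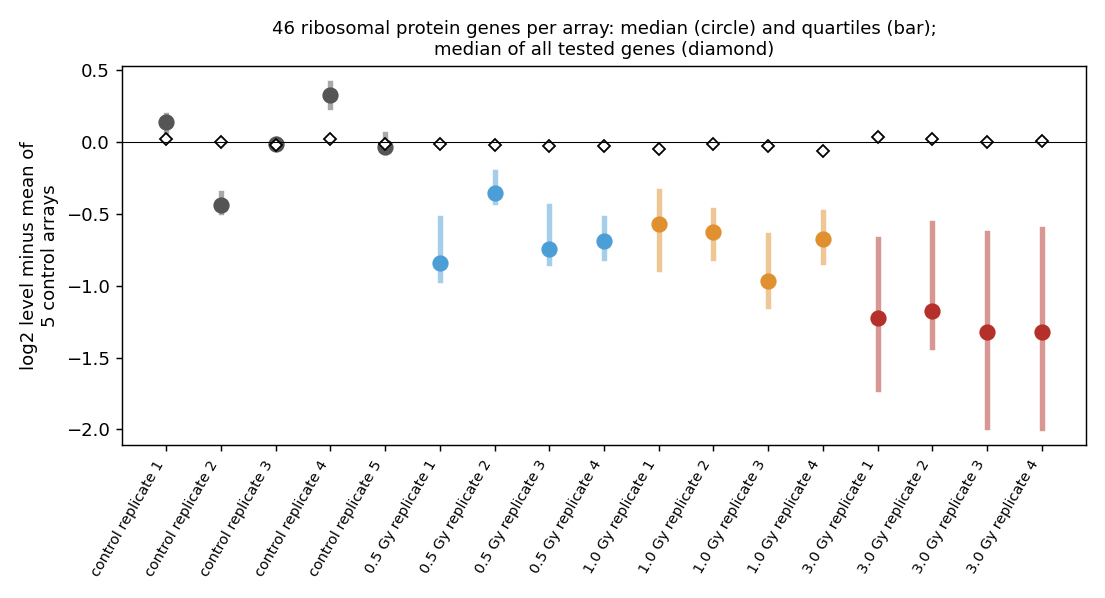
Median (circle) and quartiles (bar) of the 46 tested ribosomal protein genes in each of the 17 arrays, as log2 level minus the mean of the 5 control arrays, with the median of all 12696 tested genes as a diamond. The ribosomal protein medians run from 0.33 in a control to -1.32 at 3.0 Gy, while the median of all genes stays near 0.

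After 0.5 Gy, 32 of the 46 genes fell, where 5.0% of all genes tested did, and 0 rose, where 5.24% of all genes did (limma, Benjamini-Hochberg adjusted p under 0.05 over all genes tested). Without adjustment 37 had p under 0.05 with a lower level and 0 with a higher one. In either direction, 2776 of the 12696 genes tested did. Both subunits took part, with 16 of 24 large and 16 of 22 small subunit genes lower. The median log2 change was -0.65, a 1.57-fold lower level, and that of all genes was -0.02. The count moved with single mice: it was 21 without 0.5 Gy replicate 1, 22 without 0.5 Gy replicate 3, and between 24 and 36 without any other single array. Calls over all genes moved too, from 635 lower with every array to 274 without 0.5 Gy replicate 1 and 285 without replicate 3. The count of ribosomal protein genes was 18 when quantile normalization was repeated on the deposited values. The share of all genes called at 0.5 Gy in that setting is not given here.

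Rpl27a, a large subunit protein, had the largest fall at this dose. Its level was 8.96, 8.36, 8.88, 9.38 and 8.94 in controls and 7.13, 8.11, 7.78 and 7.92 at 0.5 Gy. No 0.5 Gy array reached the lowest control, and the log2 change was -1.17 ± 0.22 (SE, adjusted p = 0.00188). Rpl27, also of the large subunit and one of the Diamond-Blackfan genes, had the smallest p, with 11.36 ± 0.28 in controls, 10.63 ± 0.18 at 0.5 Gy and a change of -0.73 ± 0.12 (SE, adjusted p = 0.000636).

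Rpl11, which binds 5S ribosomal RNA and can hold back Mdm2, was 10.06, 9.14, 9.83, 10.31 and 9.84 in controls and 8.49, 9.27, 8.56 and 8.82 at 0.5 Gy. Replicate 2 at 0.5 Gy lay above control replicate 2, and the other 3 lay below all controls. The change was -1.05 ± 0.19 (SE, adjusted p = 0.00144). Rpsa, the small subunit protein first known as the laminin receptor precursor, changed by -1.09 ± 0.24 (SE, adjusted p = 0.005). In 7 genes, namely Rpl27, Rpl27a, Rpl37a, Rplp0, Rplp2, Rps2 and Rpsa, all 0.5 Gy arrays lay below all controls, against 4.54% of all genes.

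Some calls at 0.5 Gy lay close to the threshold. Rps19, the gene most often mutated in Diamond-Blackfan anaemia, was 10.85, 10.02, 10.76, 11.23 and 10.66 in controls and 9.89, 10.49, 9.92 and 10.01 at 0.5 Gy. The groups overlapped through control replicate 2 and 0.5 Gy replicate 2, and the change was -0.63 ± 0.20 (SE, adjusted p = 0.0453). That call was lost without any 1 of control replicates 1, 3, 4 or 5, of 0.5 Gy replicates 1, 3 or 4, of 1.0 Gy replicates 1, 2 or 4, or of 3.0 Gy replicate 1, with changes from -0.50 to -0.64. Rps4x, an X-linked small subunit protein, changed by -0.67 ± 0.21 (SE, adjusted p = 0.0436), and its call was lost without any 1 of the same arrays other than 1.0 Gy replicate 1, with changes from -0.59 to -0.70.

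Of the 46 genes, 36 fell at 1.0 Gy, where 8.49% of all genes did, and 0 rose, where 8.80% of all genes did. Without adjustment 39 had p under 0.05 with a lower level and 0 with a higher one, beside 3611 of the 12696 genes tested in either direction. The large subunit gave 19 of 24 and the small subunit 17 of 22. The median log2 change was -0.72, against -0.04 over all genes. In 28 genes all 1.0 Gy arrays lay below all controls, against 6.38% of all genes.

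Rpl22l1 had the largest fall at 1.0 Gy, and its paralogue Rpl22, an RNA-binding protein of the large subunit that lymphocyte development depends on, had one of the smallest p. Rpl22 was 12.05, 11.24, 11.89, 12.27 and 11.86 in controls, and 9.97, 10.64, 10.61 and 10.71 at 1.0 Gy. The 1.0 Gy arrays all lay below the controls, and replicate 1 lay apart at the low end. The change was -1.38 ± 0.20 (SE, adjusted p = 4.45e-05), a 2.6-fold lower level. Rpl22 was read by a probe set of the _s_at type, which can bind several transcripts. Its other probe sets, with means of 8.02 and 5.32, gave -1.17 and -0.45 at 1.0 Gy (adjusted p = 0.000531 and 0.272 over all probe sets, limma). Rpl22l1 changed by -1.45 ± 0.26 (SE, adjusted p = 0.000512).

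Among the small subunit genes, Rps14, whose loss underlies the anaemia of the 5q- syndrome, had 12.81 ± 0.28 in controls and 11.94 ± 0.08 at 1.0 Gy, a change of -0.87 ± 0.13 (SE, adjusted p = 5.2e-05). Rps7, which can bind Mdm2, changed by -1.02 ± 0.15 (SE, adjusted p = 5.97e-05). Rps15 went from 11.94 ± 0.33 to 10.93 ± 0.25 (adjusted p = 0.000278), and Rps9 changed by -0.85 ± 0.13 (SE, adjusted p = 0.000102). Rps9 was read by a probe set of the _s_at type, which can bind several transcripts. Of its other 2 probe sets, the bright one with a mean of 10.41 also fell, by 0.50 and 0.43 at these doses (adjusted p = 0.00909 and 0.0142 over all probe sets, limma), and the dim one with a mean of 3.55 gave 0.13 and 0.11, neither of them called, where the one used gave -0.66 and -0.85.

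At 3.0 Gy 38 of the 46 genes fell, where 29.2% of all genes tested did, and 1 rose, where 20.0% of all genes did. Without adjustment the counts of genes with p under 0.05 were the same, 38 lower and 1 higher. That p was reached by 7100 of the 12696 genes tested in either direction. The median log2 change was -1.24, a 2.36-fold lower level, against 0.04 over all genes. At least 2-fold falls were found in 30 of the 46 genes and in 11.1% of all genes. In 36 genes all 3.0 Gy arrays lay below all controls, against 22.9% of all genes. The large subunit gave 20 of 24 and the small subunit 18 of 22.

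Rps18, a protein of the head of the small subunit, had the largest fall. Its level was 11.61, 10.90, 11.60, 12.12 and 11.50 in controls, 10.34, 11.12, 10.50 and 10.57 at 0.5 Gy, 10.43, 10.55, 9.93 and 10.30 at 1.0 Gy, and 9.23, 9.40, 8.85 and 8.60 at 3.0 Gy. Every 3.0 Gy array lay below every array of the other groups, and the 1.0 Gy arrays lay below all controls. The change at 3.0 Gy was -2.52 ± 0.22 (SE, adjusted p = 4.26e-08), a 5.76-fold lower level. The probe set is of the _x_at type, which can bind related sequences such as the processed pseudogenes that this family has in number. Of the 5 other probe sets of Rps18, 3 were tested. Those with means of 9.82 and 9.48 gave -2.63 and -2.42, and that with a mean of 5.12 gave 0.14, which was not called.

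Rpl22 was 9.74, 9.86, 9.43 and 9.41 at 3.0 Gy, all below its 1.0 Gy arrays, and had changed by -2.25 ± 0.20 (SE, adjusted p = 6.08e-08) from control. Its paralogue Rpl22l1 was 9.78, 8.63, 9.64, 10.09 and 9.47 in controls and 7.75, 7.31, 7.38 and 6.91 at 3.0 Gy. The groups did not overlap, and the change was -2.19 ± 0.26 (SE, adjusted p = 1.65e-06). Rpl22 protein is known to repress Rpl22l1, and here both messages were lower.

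Rpsa was 11.15, 10.54, 10.95, 11.48 and 10.79 in controls and 8.84, 9.39, 8.74 and 8.42 at 3.0 Gy, a change of -2.13 ± 0.24 (SE, adjusted p = 6.85e-07). Along with Rps18, Rpl22, Rpl22l1 and Rpsa, 2 more genes were at least 4-fold lower. These were Rpl6, a large subunit protein (-2.07 ± 0.19, SE), and Rps4x (-2.03 ± 0.21, SE). Rpl4, which lines the exit tunnel for the growing peptide, had 11.51 ± 0.24 in controls, 9.56 ± 0.36 at 3.0 Gy and a change of -1.95 ± 0.18 (SE, adjusted p = 8.7e-08). Rpl4 had not been called at 0.5 Gy (-0.53 ± 0.18, SE, adjusted p = 0.0655) and was called at 1.0 Gy (-0.66 ± 0.18, SE, adjusted p = 0.0138), though not without 1.0 Gy replicate 3 (-0.51).

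Rpl13a, which also takes part in silencing inflammatory messages in myeloid cells, changed by -1.76 ± 0.16 (SE, adjusted p = 6.08e-08). Rps3, which also has roles in DNA repair and NF-kB signalling, changed by -1.83 ± 0.17 (SE, adjusted p = 9.89e-08). Rps20 changed by -1.70 ± 0.16 (SE, adjusted p = 1.34e-07) and Rps15 by -1.79 ± 0.17 (SE, adjusted p = 1.32e-07). Rps10 (-1.33 ± 0.15, SE) and Rps28 (-1.30 ± 0.15, SE), both small subunit proteins linked to Diamond-Blackfan anaemia, lay near the median of the family.

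**Figure D2:**
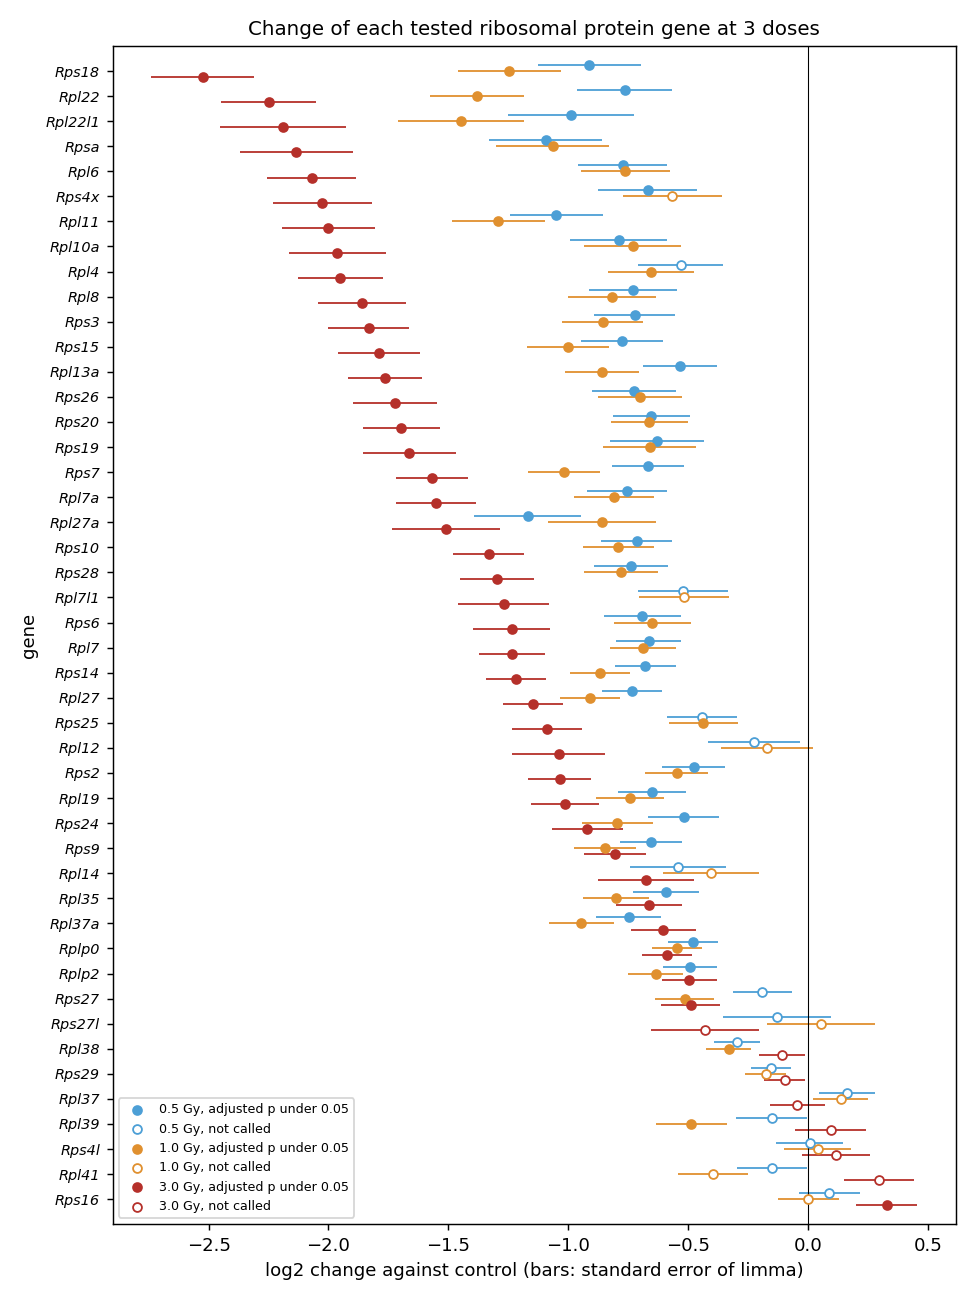
Log2 change of each of the 46 tested ribosomal protein genes against control at 0.5, 1.0 and 3.0 Gy, with limma's standard error as a bar and filled points where the adjusted p was under 0.05. The changes at 3.0 Gy spread from -2.52 in Rps18 to 0.33 in Rps16, while those at 0.5 and 1.0 Gy lie closer together.

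The 7 genes not called at 3.0 Gy were Rpl37, Rpl38, Rpl39, Rpl41, Rps27l, Rps29 and Rps4l, and 5 of them (Rpl37, Rpl41, Rps27l, Rps29 and Rps4l) were called at no dose. Rpl38, Rpl39, Rpl41, Rps29 and Rps4l were picked out after their values were seen. Rps29, another Diamond-Blackfan gene, was 13.47 ± 0.10 in controls and 13.37 ± 0.05 at 3.0 Gy (-0.10 ± 0.08, SE, adjusted p = 0.341). Rpl38 was called at 1.0 Gy alone (-0.33 ± 0.09, SE, adjusted p = 0.0191), though its change at 0.5 Gy was close to that (-0.30 ± 0.09, SE, adjusted p = 0.0528). It was at -0.11 ± 0.09 (SE, adjusted p = 0.344) at 3.0 Gy. Rpl37, Rpl39 and Rps4l were read by dim probe sets.

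Dim probe sets went along with smaller changes, but the size of the change did not follow brightness throughout. Rps29 and Rpl38, which had the highest means (13.37 and 13.10), were at -0.10 and -0.11 at 3.0 Gy. Of the tested genes, 38 had a mean above 4.88, the mean 75th percentile of the arrays, and 8 lay below it, namely Rpl12, Rpl14, Rpl37, Rpl39, Rpl7l1, Rps16, Rps27 and Rps4l. Among the bright genes 32, 34 and 34 fell at 0.5, 1.0 and 3.0 Gy and 0 rose at any dose. Among the dim ones 0, 2 and 4 fell and 0, 0 and 1 rose. Over all genes tested, bright and dim together, 5.0%, 8.49% and 29.2% fell and 5.24%, 8.80% and 20.0% rose.

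The gene that rose at 3.0 Gy, Rps16, belongs to the dim ones. It was 4.24, 4.28, 4.13, 3.90 and 4.24 in controls and 4.22, 4.63, 4.43 and 4.66 at 3.0 Gy. The groups overlapped, and the change was 0.33 ± 0.13 (SE, adjusted p = 0.0399). The call was lost without any 1 of control replicates 3 or 4 and 3.0 Gy replicates 2, 3 or 4, with changes from 0.26 to 0.35, and also with the replicate number as a block (0.35 ± 0.15, SE, adjusted p = 0.0586), when only both groups compared were fitted, when arrays were centred on their medians and when arrays were weighted by quality. With the block, Rpl41 was the gene called higher in its place (0.36 ± 0.13, SE, adjusted p = 0.0351).

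**Figure D3:**
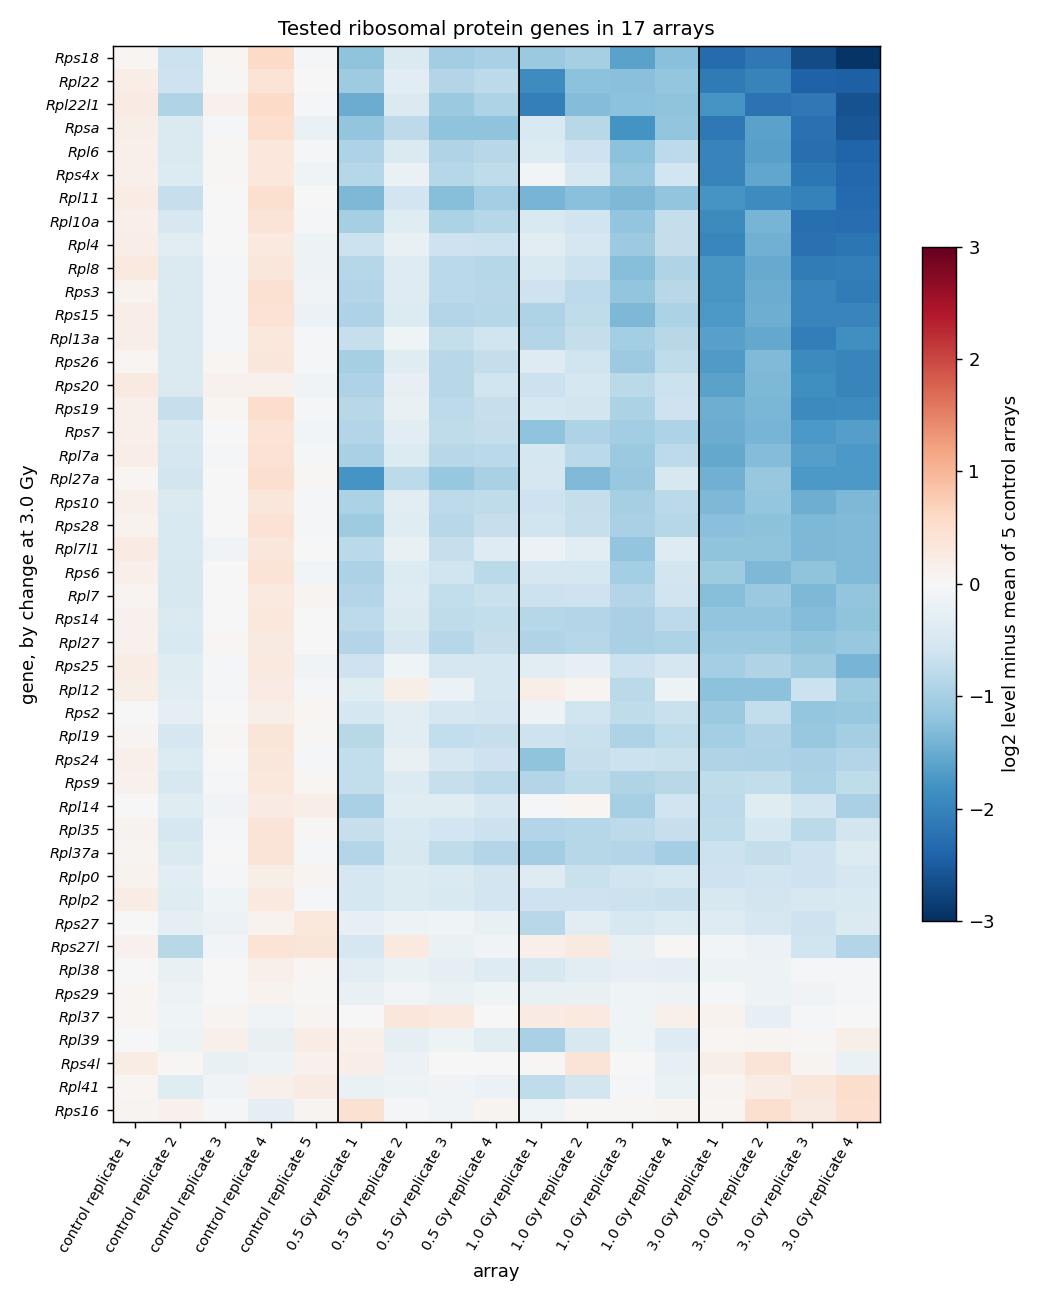
Log2 level of each tested ribosomal protein gene (rows, ordered by the change at 3.0 Gy) minus its mean over the 5 control arrays, in 17 arrays (columns, with lines between the 4 groups). Blue is lower and red is higher. The 3.0 Gy columns are the darkest in the upper rows and turn pale in the lowest rows, and control replicate 2 is pale blue in most rows.

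The next comparisons asked whether the dose groups differed from each other. Between 1.0 and 0.5 Gy limma called 0 of the 46 genes in either direction, where 0.0158% of all genes fell and 0% rose. Without adjustment 4 had p under 0.05, all lower at 1.0 Gy, beside 735 of the 12696 genes tested in either direction. The median difference was -0.07. Rpl22 had one of the smallest p, at -0.62 ± 0.21 (SE, adjusted p = 0.53), and all of its 1.0 Gy arrays lay below its 0.5 Gy arrays. Rps27, which can bind Mdm2 as its paralogue Rps27l can, differed by -0.32 ± 0.13 (SE, adjusted p = 0.729).

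From 1.0 to 3.0 Gy, 28 of the 46 genes were lower, where 22.7% of all genes were, and 2 were higher, where 15.9% of all genes were. Without adjustment 28 had p under 0.05 with a lower level and 5 with a higher one. Such a p was found in 6293 of the 12696 genes tested, in either direction. The median difference was -0.55, against 0.06 over all genes. Rps4x differed most, by -1.46 ± 0.22 (SE, adjusted p = 7.67e-05), a 2.75-fold lower level. Rpl6 differed by -1.31 ± 0.20 (SE, adjusted p = 8.26e-05), Rpl4 by -1.30 ± 0.19 (SE, adjusted p = 6.26e-05) and Rps20 by -1.03 ± 0.17 (SE, adjusted p = 0.000191).

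Between 3.0 and 0.5 Gy 28 genes were lower, where 20.9% of all genes were, and 1 was higher, where 12.9% of all genes were. Without adjustment the counts were 31 and 1, beside 5636 of the 12696 genes tested in either direction. The median difference was -0.56. Rps18 differed by -1.61 ± 0.23 (SE, adjusted p = 4.28e-05), Rpl22 by -1.49 ± 0.21 (SE, adjusted p = 4.24e-05) and Rpl13a by -1.23 ± 0.16 (SE, adjusted p = 2.78e-05). In all, 27 genes were lower at 3.0 Gy than at both other doses, as 19.1% of all genes were.

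The genes differed in their course over the doses. An F test over the 3 doses called 41 of the 46 genes, where 48.2% of all genes were called. Of the 46 genes, 31 were lower than control at all 3 doses, as 3.81% of all genes were, and 23 of these were lower at 3.0 than at 1.0 Gy as well, as 1.47% of all genes were. These sets need a call at 0.5 Gy, and such calls dropped from 32 to 21 without 0.5 Gy replicate 1. In 22 genes the group means fell in the order of the doses, as in 11.2% of all genes.

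The other 8 of the 31 genes were lower at every dose, with no call between 3.0 and 1.0 Gy. They were Rpl19, Rpl27, Rpl35, Rpl37a, Rplp0, Rplp2, Rps24 and Rps9. Rplp0 and Rplp2 belong to the stalk of the large subunit, which recruits elongation factors, and Rplp1, the remaining stalk protein, was not among the 48 genes. Rplp0 was 12.87, 12.43, 12.73, 12.95 and 12.85 in controls, 12.24, 12.36, 12.33 and 12.23 at 0.5 Gy, 12.38, 12.10, 12.18 and 12.23 at 1.0 Gy, and 12.15, 12.17, 12.14 and 12.26 at 3.0 Gy. All irradiated arrays lay below all controls, and the dose groups overlapped each other. The changes against control were -0.48 ± 0.11 (SE, adjusted p = 0.00571), -0.55 ± 0.11 (SE, adjusted p = 0.000915) and -0.59 ± 0.11 (SE, adjusted p = 0.00013) at the rising doses, and the difference between 3.0 and 1.0 Gy was -0.04 ± 0.11 (SE, adjusted p = 0.775).

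Rplp2 changed by -0.49 ± 0.11, -0.64 ± 0.11 and -0.50 ± 0.11 (SE; adjusted p = 0.00806, 0.000463 and 0.00137) at the rising doses. Rpl37a, a zinc-binding large subunit protein, had its lowest mean at 1.0 Gy. It was 12.47, 11.95, 12.40, 12.77 and 12.36 in controls, 11.35, 11.54, 11.51 and 11.38 at 1.0 Gy, and 11.75, 11.67, 11.76 and 11.97 at 3.0 Gy. The 3.0 Gy arrays all lay above the 1.0 Gy arrays, 1 of them just above the lowest control, and the difference between those doses was 0.34 ± 0.14 (SE, adjusted p = 0.0643). In 5 genes (Rpl37a, Rpl38, Rpl39, Rpl41 and Rplp2) all 3.0 Gy arrays lay above all 1.0 Gy arrays, against 12.4% of all genes.

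Rpl41 and Rpl39 were the genes called higher at 3.0 than at 1.0 Gy. Rpl41, a very short peptide of the large subunit, was 11.61, 11.18, 11.43, 11.70 and 11.80 in controls, 10.79, 10.98, 11.48 and 11.34 at 1.0 Gy, and 11.63, 11.76, 11.89 and 12.07 at 3.0 Gy. The 3.0 Gy arrays lay above all 1.0 Gy arrays and overlapped the controls. The difference from 1.0 Gy was 0.69 ± 0.15 (SE, adjusted p = 0.00208) and from control 0.30 ± 0.15 (SE, adjusted p = 0.0993). The difference from 0.5 Gy was 0.45 ± 0.15 (SE, adjusted p = 0.0309), and that call was lost without any 1 of 0.5 Gy replicates 1, 2 or 4 or 3.0 Gy replicates 3 or 4, with values from 0.37 to 0.45.

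The probe sets of Rpl41 did not share a direction. Against control at 3.0 Gy, the one used gave 0.30 and another bright one 0.06, neither called, while that with a mean of 5.72 gave -0.53 ± 0.11 (SE, adjusted p = 0.000527 over all probe sets). With the dimmest one, of the plain type, the difference between 3.0 and 1.0 Gy was -0.24. Rpl39, which also sits at the exit tunnel, was read by a dim probe set at 4.33 ± 0.19 in controls, 3.84 ± 0.35 at 1.0 Gy and 4.42 ± 0.07 at 3.0 Gy. It differed by 0.58 ± 0.16 (SE, adjusted p = 0.00765) between 3.0 and 1.0 Gy.

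**Figure D4:**
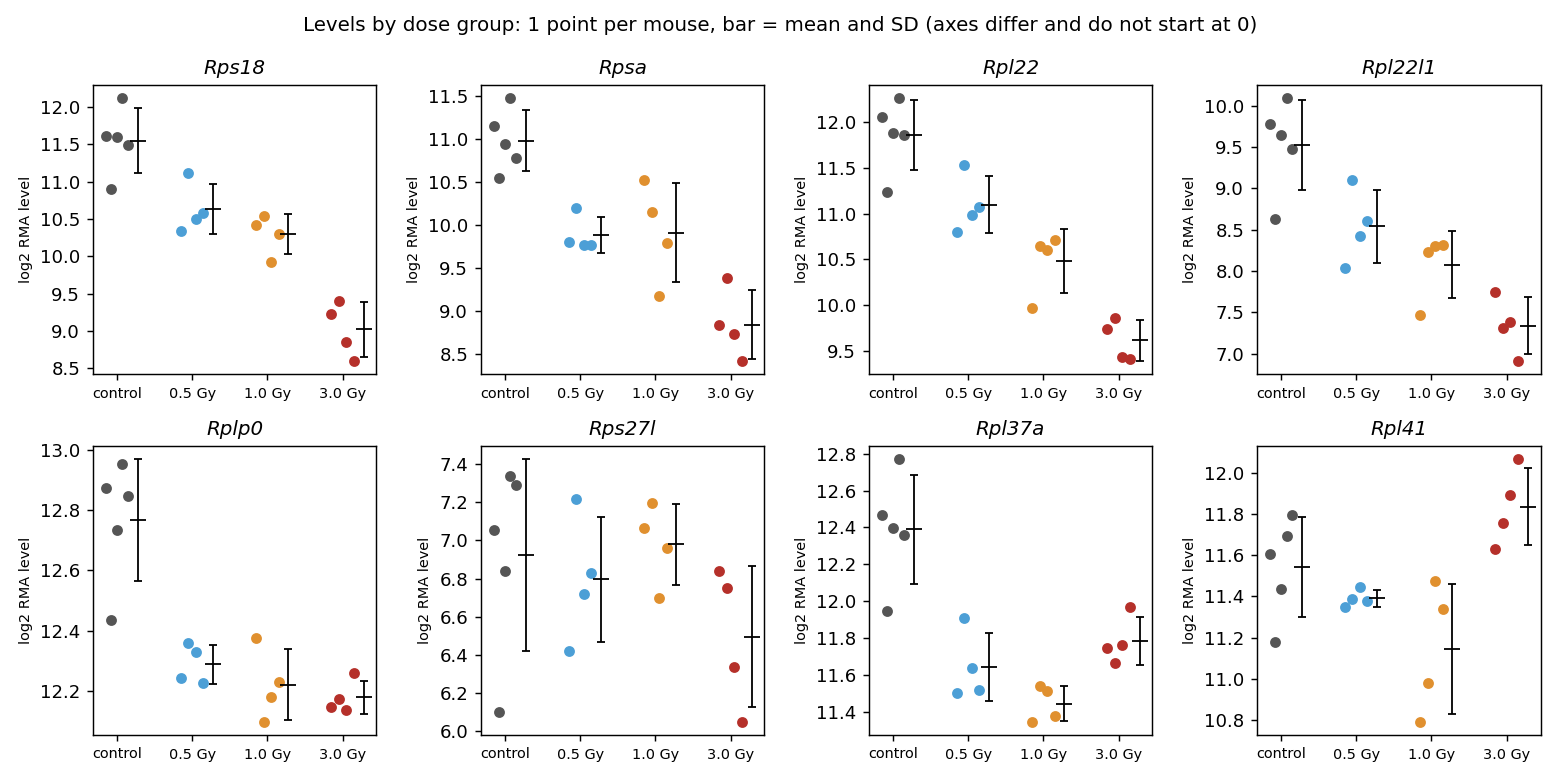
Log2 RMA level of 8 ribosomal protein genes in the 4 dose groups, 1 point per mouse, with mean and SD as a bar. Axes differ between panels and do not start at 0. Rps18, Rpsa, Rpl22 and Rpl22l1 are lowest at 3.0 Gy, Rplp0 lies at about 1 level at all 3 doses, Rpl37a and Rpl41 are lowest at 1.0 Gy, and the groups of Rps27l overlap.

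By role, the list of proteins that bind Mdm2 or 5S ribosomal RNA had 7 tested members. Of these 5, 6 and 6 fell at 0.5, 1.0 and 3.0 Gy and 0 rose, with a median of -1.57 at 3.0 Gy. Over all genes tested 5.0%, 8.49% and 29.2% fell and 5.24%, 8.80% and 20.0% rose at these doses, with a median of 0.04 at 3.0 Gy. Rpl11 changed by -1.29 ± 0.19 (SE, adjusted p = 7.31e-05) at 1.0 Gy. At 3.0 Gy its arrays read 8.07, 7.96, 7.80 and 7.51, with a mean of 7.84 ± 0.24 against 9.84 ± 0.44 in controls (adjusted p = 1.58e-07). These lay below every array of the other groups. Rps7 changed by -1.57 ± 0.15 (SE, adjusted p = 1.36e-07) and Rps14 by -1.22 ± 0.13 (SE, adjusted p = 3.31e-07) at 3.0 Gy.

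The member of that list with no call was Rps27l, a direct target gene of p53 and a paralogue of Rps27. It was 7.06, 6.10, 6.84, 7.34 and 7.29 in controls, 6.42, 7.21, 6.72 and 6.83 at 0.5 Gy, 7.07, 7.20, 6.70 and 6.96 at 1.0 Gy, and 6.84, 6.75, 6.33 and 6.05 at 3.0 Gy. All groups overlapped the controls, where replicate 2 was low. The changes were -0.13 ± 0.22, 0.06 ± 0.22 and -0.43 ± 0.22 (SE; adjusted p = 0.82, 0.905 and 0.119), and the sign at 1.0 Gy turned without control replicate 2 (-0.15). At 3.0 Gy the fall of Rps27l was called in 2 of 28 alternative fits. Rps27, read by a dim probe set, changed by -0.19 ± 0.12, -0.51 ± 0.12 and -0.49 ± 0.12 (SE; adjusted p = 0.408, 0.00591 and 0.00293).

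Of the 11 tested genes linked to Diamond-Blackfan anaemia, 9, 10 and 10 fell at the rising doses, where 5.0%, 8.49% and 29.2% of all genes did, and 0 rose. Rps27 and Rps29 were the exceptions at 0.5 Gy and Rps29 at the other doses. Rps19 changed by -0.66 ± 0.20 (SE, adjusted p = 0.0235) at 1.0 Gy, a call lost without control replicate 4 (-0.53) or 1.0 Gy replicate 3 (-0.57). At 3.0 Gy it read 9.25, 9.33, 8.79 and 8.81, all below every other array, a change of -1.66 ± 0.20 (SE, adjusted p = 1.31e-06). The 7 tested genes whose proteins also have known roles outside the ribosome fell in 7, 6 and 7 cases, against the same shares of all genes, the exception being Rps4x at 1.0 Gy (-0.57 ± 0.21, SE, adjusted p = 0.0673).

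Among the 4 tested paralogues, which replace or resemble a core protein, Rpl22l1 fell at all doses and Rpl7l1, a factor of large subunit assembly, at 3.0 Gy (-1.27 ± 0.19, SE, adjusted p = 1.79e-05), while Rps27l and Rps4l were called at no dose. The call of Rpl22l1 at 0.5 Gy (-0.99 ± 0.26, SE, adjusted p = 0.0196) was lost without control replicate 4 (-0.85) or 0.5 Gy replicates 1 (-0.82) or 3 (-0.95). The call of Rpl22 at 0.5 Gy (-0.76 ± 0.20, SE, adjusted p = 0.0165) was lost without the same arrays (-0.66, -0.66 and -0.73). It was also lost when quantile normalization was repeated and when probe sets without _x_at or _s_at were preferred.

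Other genes of the translation machinery were followed as lists. The shares of all genes that fell were 5.0%, 8.49% and 29.2% at the rising doses, those that rose 5.24%, 8.80% and 20.0%, and the medians of all genes -0.02, -0.04 and 0.04. Of a list of 6 further ribosomal protein genes outside the symbol rule, Fau and Rps3a1 could be followed and fell at all 3 doses, with log2 changes of -1.08 in Fau and -1.79 in Rps3a1 at 3.0 Gy. Of 18 tested elongation factors, initiation factor subunits and other genes with TOP messages, 8, 8 and 14 fell and 0, 1 and 1 rose. Eef1a1, which brings transfer RNA to the ribosome, changed by -0.54 ± 0.12, -0.58 ± 0.12 and -1.24 ± 0.12 (SE; adjusted p = 0.00652, 0.00198 and 1.72e-07). Nap1l1, a histone chaperone, was the one that rose, by 0.55 ± 0.16 at 1.0 Gy and 0.73 ± 0.16 at 3.0 Gy (SE; adjusted p = 0.0254 and 0.00114). Tpt1, one of the classic TOP messages, was at -0.04 ± 0.08 at 3.0 Gy (SE, adjusted p = 0.716).

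The list of factors that build ribosomes had 47 tested genes. Of these 4 and 3 fell at 0.5 and 1.0 Gy, near the 5.0% and 8.49% of all genes, and 38 at 3.0 Gy, where 29.2% of all genes did. With 0 rising at any dose, the medians were -0.09, -0.14 and -0.77. Fbl, the methyltransferase fibrillarin, was at -0.29 ± 0.24 and -0.30 ± 0.24 at the lower doses (SE; adjusted p = 0.549 and 0.456) and fell by 2.56 ± 0.24 at 3.0 Gy (SE, adjusted p = 1.11e-07). Of 13 tested genes of RNA polymerase I and its factors, 2, 2 and 10 fell and 0, 1 and 1 rose. Polr1c and Polr1d, subunits shared with RNA polymerase III, were those lower at 0.5 and 1.0 Gy, and Taf1a was the one that rose. Whether the share called differs between these lists and the ribosomal proteins was not tested, and all 3 doses share the same controls.

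Other measures of the same arrays moved with these changes, and whole blood holds many cell types. In bulk RNA, fewer cells of a type and less of a message per cell cannot be told apart. All tested markers of platelets rose at each dose, 17 of 17, where 5.24%, 8.80% and 20.0% of all genes did, and the log2 of their summed level ran from 13.98 to 14.68 in controls, 15.24 to 15.34 at 0.5 Gy, 15.47 to 15.71 at 1.0 Gy and 15.40 to 16.14 at 3.0 Gy. Of 17 tested red cell markers, 5, 7 and 11 fell, where 5.0%, 8.49% and 29.2% of all genes did, and 0, 0 and 3 rose. Their summed level was 15.09 to 15.71 in controls, 15.17 to 15.36 at 0.5 Gy, 14.80 to 14.94 at 1.0 Gy and 14.11 to 14.73 at 3.0 Gy, so it overlapped the controls at 0.5 Gy and lay below them at the other doses.

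Of 11 tested B cell markers, 1, 1 and 10 fell, against the same shares of all genes, and their summed level was 11.33 to 12.09 in controls, 10.83 to 11.71 at 0.5 Gy, 11.03 to 11.76 at 1.0 Gy and 8.23 to 9.89 at 3.0 Gy. Of 12 tested T cell markers, 2, 3 and 9 fell, with summed levels of 10.99 to 11.90, 10.90 to 11.37, 10.60 to 11.41 and 10.09 to 10.25. Both lymphocyte sums overlapped the controls at the lower doses and lay below them at 3.0 Gy. Of 8 neutrophil markers 7 rose at 3.0 Gy, where 20.0% of all genes did. Of 8 monocyte markers 3 fell and of 8 NK markers 2 fell at that dose, counts near the 29.2% of all genes that did. No marker value is 0 on this scale. The part of cell composition in the ribosomal protein changes was not tested.

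The array's own probe sets for 18S ribosomal RNA, the core of the small subunit, took a different order. Their mean was 12.69 ± 0.77 after 0.5 Gy and 13.28 ± 0.28 after 1.0 Gy, against 10.52 ± 0.49 in controls and 10.68 ± 0.14 after 3.0 Gy. With this level as a term in the fit, 19, 20 and 39 ribosomal protein genes fell at the rising doses, and 0 differed between 3.0 Gy and either lower dose in any direction. The shares of all genes called in that fit are not given here, so these counts are not read as particular to the ribosomal protein genes. Every array at both lower doses had a higher 18S level than every control and 3.0 Gy array. The term thus overlaps with dose and widens the errors, at 1.0 Gy from SE 0.22 to 0.46 in Rps27l and 0.12 to 0.30 in Rpl37. It also moved the values at 1.0 Gy, from 0.06 to -1.41 in Rps27l and from 0.14 to -0.0251 in Rpl37. Whether calls were lost in that fit through moved values or through wider errors was not tested. For Actb, the difference between control probe sets at both ends of the message, a sign of RNA integrity, was 0.0759 to 0.224 in controls, 0.00773 to 0.0511 at 0.5 Gy, 0.00277 to 0.111 at 1.0 Gy and -0.0469 to 0.234 at 3.0 Gy. For Gapdh it was -0.036 to 0.316, 0.162 to 0.428, 0.196 to 0.352 and 0.101 to 0.307, so its mean was higher than in controls at both lower doses (0.26 and 0.26 against 0.18) where that of Actb was lower. The Gapdh values of all dose groups overlapped the controls. The part of these differences, and that of the 18S level, in the ribosomal protein changes was not tested.

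**Figure D5:**
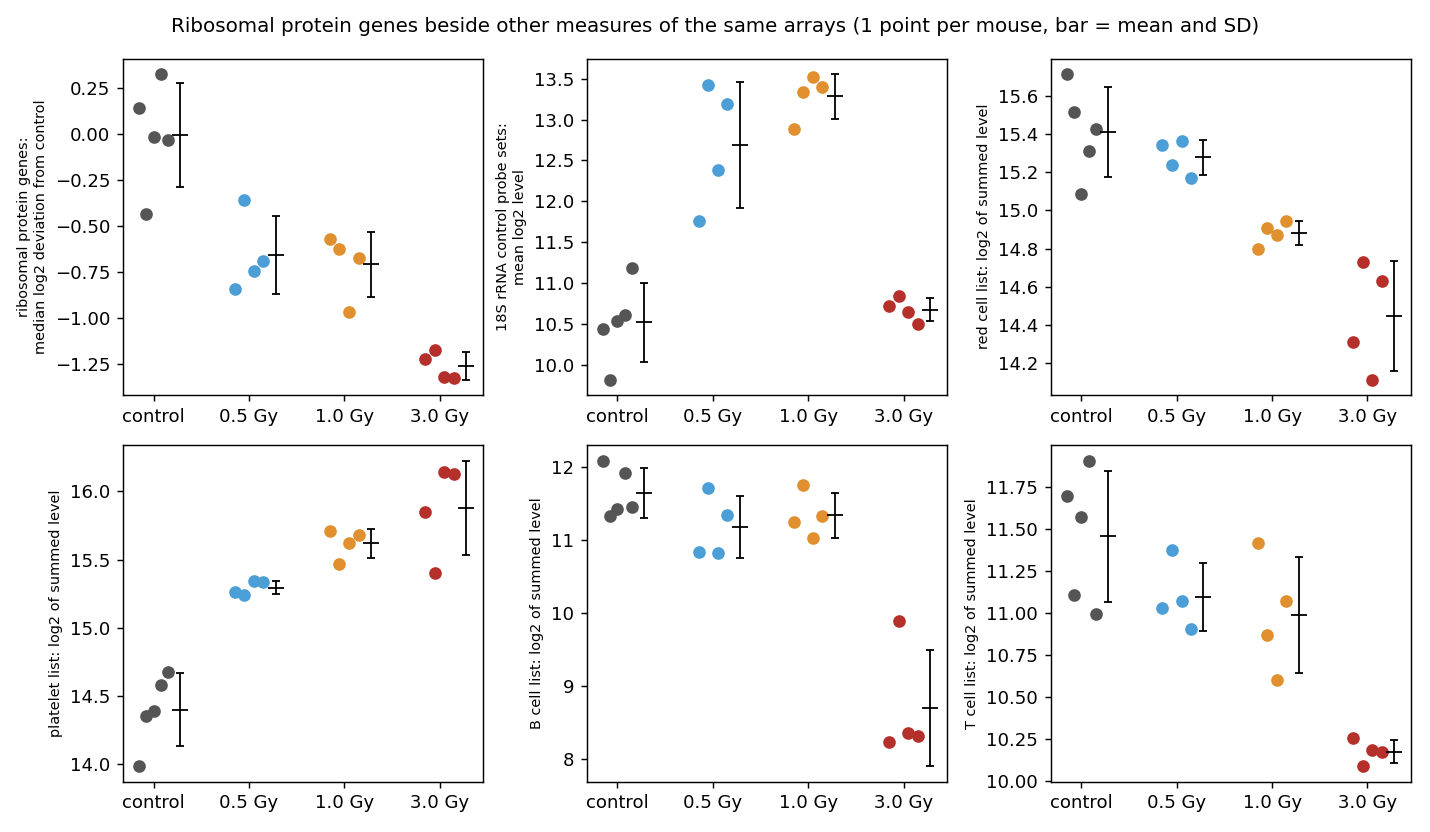
Measures per array by dose group, 1 point per mouse with mean and SD as a bar: the median deviation of the ribosomal protein genes, the mean 18S control level, and the log2 of the summed level of red cell, platelet, B cell and T cell markers. Axes differ and do not start at 0. The 18S level is high at 0.5 and 1.0 Gy only, the platelet sum is higher at each dose than in controls, and the B and T cell sums are lowest at 3.0 Gy.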

How the data were processed

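The authors deposited log2 values of 45101 probe sets in 17 arrays, made with RMA and R 3.3.2 per the submitters' processing notes. Settings of RMA and any batch are not stated here. The method makes the arrays alike in distribution, which can change the size of a fall of many abundant messages in either direction. That was not tested. Symbols came from platform annotation: 34945 probe sets carried 1 symbol and 932 several, of which 110 included a ribosomal protein symbol and were not named.

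Per gene the probe set with the highest mean was used and kept if above its array's 50th percentile in at least 4 arrays. The 4 group means were fitted with limma 3.58.1 (lmFit, eBayes) in R 4.3.3, two-sided, with Benjamini-Hochberg adjustment over 12696 genes, after tests on simulated data. The members, gene lists and tests were chosen with earlier results of these data known. Members named with values had the 4 smallest p per subunit and dose, the largest rise or fall per dose, the 4 smallest p between 3.0 Gy and each lower dose, the 2 smallest between 1.0 and 0.5 Gy, a call against the majority, or a place in the stalk, paralogue or Mdm2 lists, plus Rps19 and Rpsa. The labels call the samples biological replicates, each as blood from a mouse, and they were taken as separate mice. The number of mice limits the precision. Of 46 tested members, 13 were read by probe sets of the _x_at or _s_at type. No 2 arrays held identical values.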

Additional observations from a re-analysis of the deposited data

Results flagged for a closer look

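In 9 of the 116 groups examined, 1 array lay far from the others of its group, and chance gives about 1 in 20. In 0.5 Gy replicate 2 this was a high level in 6 genes: Rpl4 (11.28, the others at most 10.89), Rps14 (12.38, at most 12.08), Rps15 (11.52, at most 11.07), Rps3 (11.51, at most 11.08), Rps4x (11.66, at most 11.11) and Rpsa (10.20, at most 9.80). These 6 flags share 1 mouse and are not independent. In 1.0 Gy replicate 1 the levels of Rpl22 (9.97, the others at least 10.61) and its paralogue Rpl22l1 (7.47, at least 8.23) were low. In 3.0 Gy replicate 3 that of Rps9 was low (10.54, the others at least 10.72).

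The mean level of the 18S ribosomal RNA control probe sets, which entered the gene comparisons only as a term in 1 alternative fit, was 12.69 at 0.5 Gy and 13.28 at 1.0 Gy, above the control range of 9.82 to 11.18.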

How the results depend on the processing

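Counts were recomputed under 28 alternatives, 17 of which left out 1 array. Those left between 21 and 36 genes lower at 0.5 Gy, 33 to 39 at 1.0 Gy, 38 to 39 at 3.0 Gy, 25 to 29 between 3.0 and 1.0 Gy and 25 to 30 between 3.0 and 0.5 Gy. The counts of higher genes stayed at 0 at both lower doses and were 0 to 1 at 3.0 Gy, 2 to 3 between 3.0 and 1.0 Gy, and 0 to 1 between 3.0 and 0.5 Gy, and 40 to 42 genes were called at any dose. With quantile normalization repeated, 18 genes fell at 0.5 Gy, 2 rose at 3.0 Gy and 4 were higher at 3.0 than at 1.0 Gy. That setting also moved all genes at 3.0 Gy from 3703 lower and 2534 higher to 3329 and 3686, and their median to 0.11. With the 18S level in the fit, 19 fell at 0.5 Gy and 20 at 1.0 Gy, and 0 differed in either direction between 3.0 Gy and 1.0 or 0.5 Gy. That term overlaps with the dose groups, widens the errors and moved the values of single genes. Where no count over all genes stands beside a setting, a moved count is not read as particular to the ribosomal protein genes. The gene higher at 3.0 Gy was lost (0) when only the compared groups were fitted, with median centring or with array weights. The count was also 0 with the 75th percentile filter and for the bright genes alone. Both leave out the dim Rps16, so they do not show a lost call. The setting of bright genes alone was added after seeing the data. The 75th percentile filter, which leaves out the dim Rpl39, left 1 gene higher at 3.0 than at 1.0 Gy. Preferring probe sets without _x_at or _s_at also left 1. Median centring, those probe sets and the mean of probe sets left 0 higher than at 0.5 Gy. With the replicate block, 28, 33 and 38 genes fell, which changed no count by over 1.5 times, though the 1 gene higher at 3.0 Gy was then Rpl41 and not Rps16. Deviations of same-numbered arrays gave r from -0.45 to 0.49, with a median of 0.07 against -0.03 for arrays of other numbers. In 7 of 17 arrays the closest match bore the same number. The labels do not say that equal numbers are pairs, so the numbers were not used as pairs in the main fit. Whether same-numbered arrays share a deviation was not tested.

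Among values of single genes, 17 turned sign, and the cause was not tested. Rps16 at 1.0 Gy ran from -0.0632 (without control replicate 4) to 0.0455 with single arrays left out, and was also below 0 without control replicate 3 (-0.00483) and 1.0 Gy replicates 2, 3 and 4 (-0.00693, -0.00759 and -0.0248). At 0.5 Gy it ran from -0.0312 (without 0.5 Gy replicate 1) to 0.155. Rps27l at 1.0 Gy ran from -0.151 (without control replicate 2) to 0.159, was -0.0169 without 1.0 Gy replicate 2, and was -1.41 with the 18S term. Rpl37 at 3.0 Gy ran from -0.0985 to 0.0179 (without 3.0 Gy replicate 2) and was -0.0251 at 1.0 Gy with the 18S term. With probe sets without _x_at or _s_at, Rps9 was 0.13 and 0.11 at 0.5 and 1.0 Gy, and Rpl41 was -0.46 at 3.0 Gy against control, -0.24 against 1.0 Gy and -0.0791 against 0.5 Gy. With the mean of probe sets Rpl41 was -0.16 at 3.0 Gy. The deposited values give no background level, so signal over background is unknown.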

Other observations

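Probe sets with several symbols, 1 of them of a ribosomal protein, could not be assigned to a gene and enter no comparison above. In a fit of every probe set, chosen after seeing the data, 99 of them were tested. Of these 80, 88 and 87 fell at 0.5, 1.0 and 3.0 Gy and 0, 1 and 2 rose, with medians of -0.68, -0.77 and -1.33. Among all 24366 probe sets of that fit, 4.33%, 7.7% and 27.6% fell and 5.03%, 8.66% and 19.1% rose. Of the 94 tested probe sets of the named ribosomal protein genes, 60, 71 and 74 fell and 0, 0 and 1 rose. Of 21 genes with more than 1 tested probe set, 15 had the same sign in all of them at 3.0 Gy, and Rpl35, Rpl41, Rps18, Rps24, Rps3 and Rps4x did not. Many of these sets share near-identical sequence, so they are not independent readings.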
